A study of Mus musculus with 14 samples.

Results

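DNA methylation was examined at the microRNA genes covered by reduced-representation bisulfite sequencing (RRBS) of mouse mammary adipose tissue. A microRNA gene was taken as any gene symbol that starts with Mir or Mirlet followed by a digit, and a CpG site belonged to the gene whose transcript start the table lists as nearest. By this rule 2249 of the 75761 sites belonged to 323 of the 12627 named genes, and 6 of these genes, with 28 sites, were longer host RNAs rather than hairpins. The tissue came from 14 female C57BL/6N mice with wild-type genotype. The 3 CON-LFD mice were kept on the control low-fat diet. The other mice were first made obese on a 60% high-fat diet. Of these, the 4 DIO-HFD mice stayed obese on it, the 3 DIO-LFD mice were moved to the low-fat diet, and the 4 DIO-VSG mice had vertical sleeve gastrectomy, a stomach-reducing operation, and the low-fat diet. Mice without gastrectomy had a sham operation, and all 14 carried E0771 mammary tumor cells, injected into the 4th mammary fat pad 22 weeks after the start. The pad sampled was the contralateral 9th pad, labelled as normal tissue, although the labels also list the E0771 line and its cell type. Marker expression was not analysed here, so the cell types in the pad could not be checked, and in whole tissue a different level in each cell and a different mix of cells cannot be told apart.

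A microRNA is cut from a hairpin in a longer RNA by Drosha and Dgcr8 in the nucleus and by Dicer in the cytoplasm, and is then loaded onto an Argonaute protein, where it guides repression of messenger RNAs that pair with its seed. Many microRNAs lie inside introns of protein-coding genes or in clusters, and methylated CpGs at a promoter usually go with low transcription. For a hairpin gene, the start used here is the 5′ end of the annotated hairpin, which is seldom the start of the primary transcript. For the 6 host RNAs it is the annotated start of that longer RNA. In adipose tissue, microRNAs such as miR-143, miR-193b and miR-33 are known for roles in fat cell differentiation and lipid handling.

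The sequences below are the hairpins in which several CpGs were measured and the mature microRNAs of the genes described most. Of the 323 genes, 294 had a sequence in RefSeq for GRCm38.p6. For the hairpins, the capitals mark the bases of the measured CpGs. The Mirlet7e hairpin lies at chr17:17830352-17830444 on the plus strand, Mir1905 at chr3:88536301-88536382 on the minus strand, and Mir149 at chr1:92850378-92850443 on the plus strand. The single capital at the 5′ end of Mir1905 is the G of a CpG whose C lies just outside the hairpin.
Mirlet7e: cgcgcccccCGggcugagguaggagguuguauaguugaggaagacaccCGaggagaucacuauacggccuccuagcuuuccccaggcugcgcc
Mir1905: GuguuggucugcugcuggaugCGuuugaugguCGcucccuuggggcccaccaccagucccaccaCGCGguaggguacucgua
Mir149: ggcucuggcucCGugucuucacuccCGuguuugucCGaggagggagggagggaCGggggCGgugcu

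For the mature microRNAs, the capitals mark the seed, bases 2 to 8. The 3 let-7 members with sites (let-7b, let-7c and let-7e) share 1 seed, miR-196a and miR-196b share another, and the remaining ones each have their own. The mature microRNAs lie at chr17:17830194-17830215 (miR-99b-5p), chr17:17830366-17830387 (let-7e-5p), chr15:85706616-85706637 (let-7c-5p), chr3:88536311-88536332 (miR-1905), chr6:52230129-52230150 (miR-196b-5p) and chr11:96265187-96265208 (miR-196a-5p).
let-7b-5p: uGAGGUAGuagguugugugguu
let-7c-5p: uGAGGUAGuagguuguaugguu
let-7e-5p: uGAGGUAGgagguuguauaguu
miR-99b-5p: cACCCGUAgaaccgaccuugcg
miR-99b-3p: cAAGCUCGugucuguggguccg
miR-1905: cACCAGUCccaccacgcgguag
miR-149-5p: uCUGGCUCcgugucuucacuccc
miR-196a-5p: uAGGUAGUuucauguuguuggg
miR-196b-5p: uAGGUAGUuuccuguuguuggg
miR-126a-3p: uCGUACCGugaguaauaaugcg
miR-210-3p: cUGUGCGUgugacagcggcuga
miR-33-5p: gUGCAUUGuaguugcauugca
miR-92b-3p: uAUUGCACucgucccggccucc

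Within 1000 bp of the annotated start lay 584 of the 2249 sites, at 131 genes. A further 1019 sites lay between 1000 and 10000 bp, 547 between 10000 and 100000 bp, and 99 farther away. The median distance was 4163 bp. Most sites stood inside another gene: 1811 (80.5%) overlapped one and 713 fell in a coding exon. Of the 323 microRNA genes, 249 were themselves inside another annotated gene. The table's CpG island flag was set at 17.6% of the sites (23.8% over the whole table) and its exon flag at 39.8% (29.7%). The sites were unevenly spread, with a median of 3 per gene, 72 genes with 1 site, 63 with at least 10, and 86 sites at Mir6991 alone. Sites at most 100 bp apart formed 1020 runs, and sites of 1 run can be read from the same DNA fragments, so sites are not independent replicates.

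Levels are given as the percentage of reads methylated at a site. The spread across the 14 mice (SD) reached 5 percentage points, the filter for testing, at 2003 of the 2249 sites (89.1%, against 86.6% of all sites), in 302 genes. One mouse stood apart before any comparison. DIO-HFD replicate 1 had a mean level of 70.9% over the 2003 sites, while DIO-HFD replicates 2, 3 and 4 had 58.5, 60.8 and 60.3%. The main counts and differences against DIO-HFD are therefore given with and without that mouse, and the values of single mice are listed in the order of their replicate numbers. The 3 comparisons with DIO-HFD share the same 4 DIO-HFD mice. Read counts were not used here, and the coverage of each site is unknown.

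Over the 2003 sites, the mean level was lowest in the DIO-HFD group and highest in the DIO-VSG group. The CON-LFD mice had 68.5, 67.9 and 63.0%, the DIO-LFD mice 70.4, 64.2 and 66.6%, and the DIO-VSG mice 69.4, 69.1, 68.7 and 69.2%. The 4 DIO-VSG mice lay within 1 point of each other, above DIO-HFD replicates 2 to 4 and below replicate 1, so that the 2 groups overlapped only through replicate 1. The group means were 66.5 ± 3.01% (SD, n = 3) in CON-LFD, 62.6 ± 5.59% (n = 4) in DIO-HFD, 67.1 ± 3.14% (n = 3) in DIO-LFD and 69.1 ± 0.292% (n = 4) in DIO-VSG mice. Against DIO-HFD, the mean was 3.87 points higher in CON-LFD, 4.49 points higher in DIO-LFD and 6.51 points higher in DIO-VSG mice, each below or near the 5.59-point spread of the DIO-HFD mice. Over all 65610 tested sites the same differences were 3.33, 3.43 and 4.89 points. Without DIO-HFD replicate 1 they were 6.62, 7.24 and 9.27 points at the microRNA genes and 5.52, 5.62 and 7.08 points over all sites. The DIO-VSG mice were 2.02 points above the DIO-LFD mice (1.46 over all sites). Each mouse was also centred on its median level over all sites. The difference in mean at the microRNA genes then became −0.875, −0.295 and −1.18 points for CON-LFD, DIO-LFD and DIO-VSG against DIO-HFD. This centring takes a median from a mean, and the mean over all sites changed sign as well, to −1.41, −1.35 and −2.80 points. When mice were centred on the scale of the test, described below, the median difference at the microRNA sites stayed positive.

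**Figure D1:**
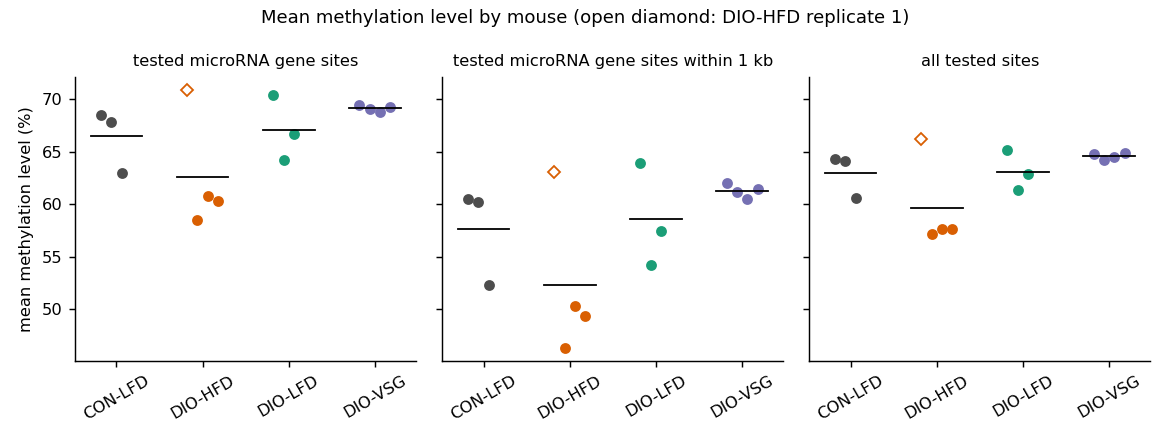
Mean methylation level (%) of each mouse over the 2003 tested microRNA gene sites, over the 535 of them within 1000 bp of the start, and over all 65610 tested sites. Points are mice, lines are group means and the open diamond is DIO-HFD replicate 1, which sits at 70.9% in the first panel while the other DIO-HFD mice sit between 58.5 and 60.8%.

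By limma, with p-values adjusted by the Benjamini-Hochberg method over all 65610 tested sites, 0 microRNA sites passed an adjusted p of 0.05 in any of the 4 comparisons. The background was as low, with 0% of all sites called between CON-LFD and DIO-HFD and 0.00305% in each of the other 3 comparisons. The smallest adjusted p at a microRNA site against DIO-HFD was 0.611 (CON-LFD), 0.430 (DIO-LFD) and 0.150 (DIO-VSG), and 0.945 for DIO-VSG against DIO-LFD.

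At an unadjusted p under 0.05, the DIO-VSG comparison held the most sites. There, 507 microRNA sites were higher and 105 lower in DIO-VSG than in DIO-HFD mice, together 30.6% of the 2003, where 25% of all sites were called (20.2% higher and 4.85% lower). These sites lay in 158 of the 302 genes, and the same share over all genes was not counted. Between DIO-LFD and DIO-HFD, 215 were higher and 42 lower (12.8%, background 10.1%, of which 7.92% higher and 2.16% lower), and between CON-LFD and DIO-HFD, 130 were higher and 38 lower (8.39%, background 7.76%, of which 6% higher and 1.76% lower). Only 30 sites were higher and 15 lower in DIO-VSG than in DIO-LFD mice (2.25%, background 3.98%, of which 2.42% higher and 1.55% lower). Centring each mouse on its median M value turned the split between DIO-VSG and DIO-HFD from 507 higher and 105 lower to 240 higher and 204 lower. After that centring, 11.98% of the microRNA sites were higher and 10.18% lower in DIO-VSG mice, beside 8.64% and 11.35% of all sites. In this comparison all sites leaned lower, while the microRNA sites still leaned higher. For DIO-LFD the centred counts were 167 and 90 (12.8%, background 9.95%, of which 5.53% higher and 4.43% lower). For CON-LFD they were 104 and 60 (8.19%, background 7.56%, of which 4.15% higher and 3.4% lower). For DIO-VSG against DIO-LFD they were 22 and 35 (2.85%, background 4.65%, of which 1.75% higher and 2.9% lower). The M scale used for the test is the log2 ratio of the methylated to the unmethylated share. On it, the median over all sites was shifted by 0.29, 0.30 and 0.48 in CON-LFD, DIO-LFD and DIO-VSG against DIO-HFD. In DIO-VSG against DIO-LFD the shift was 0.16. After centring on the median M, the 3 median differences against DIO-HFD were 0.061, 0.090 and 0.133 at the microRNA sites. Over all sites they were −0.00077, 0.0126 and −0.0067. For DIO-VSG against DIO-LFD the centred medians were 0.017 and −0.035.

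MicroRNA sites passed the adjusted test in numbers once DIO-HFD replicate 1 was left out. That mouse was singled out by its level at these same sites. The adjusted p-values without it, here and below, therefore describe how the result hangs on 1 mouse and are not a separate test. Without that mouse, 769 microRNA sites were higher and 127 lower in DIO-VSG than in DIO-HFD mice at an adjusted p under 0.05, which is 44.7% of the 2003 beside 34.4% of all sites (28.8% higher and 5.62% lower). For DIO-LFD, 357 were higher and 68 lower (21.2%, background 14.6%, of which 12.1% higher and 2.42% lower), and for CON-LFD, 255 were higher and 75 lower (16.5%, background 12%, of which 9.67% higher and 2.3% lower). Between DIO-VSG and DIO-LFD the count stayed at 0 (background 0.00457%). Sites at which all mice of 1 group lay above all mice of the other can be counted without a fit. With all 4 DIO-HFD mice, every DIO-VSG mouse was above every DIO-HFD mouse at 132 microRNA sites (6.59%, background 5.55%) and below at 39 (1.95%, background 2.03%). These counts were, without DIO-HFD replicate 1, 1039 (51.9%, background 38.5%) and 167 (8.34%, background 7.95%).

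The sites close to the annotated start differed most from the rest of the table. Of the 535 tested sites within 1000 bp, 186 (34.8%) were higher and 33 (6.17%) lower in DIO-VSG than in DIO-HFD mice (unadjusted p under 0.05), beside 14.4% higher and 4.68% lower of the 15363 sites of all genes within 1000 bp. The median difference was 8.74 points at these microRNA sites and 2.78 points at the sites of all genes. Mir6991 alone gave 74 of the 535 sites. Without it, 143 of 461 sites (31.0%) were higher and 33 (7.16%) lower, with a median of 7.50 points. Farther out the microRNA sites and all sites were close, with medians of 6.63 and 6.71 points between 1000 and 10000 bp, 7.34 and 5.94 points up to 100000 bp, and 4.33 and 4.56 points beyond. The level within 1000 bp also differed, at 52.3% in DIO-HFD mice for microRNA sites and 44.9% for all sites. Between 1000 and 10000 bp, where the median was 6.71 points, the sites of all genes had 56.7% in DIO-HFD mice. A hairpin start is seldom the start of the primary transcript. Sites within 1000 bp of hairpins and of other genes thus lie at unlike positions. The part of level and of position in the result was not tested. Without DIO-HFD replicate 1, 274 of the 535 sites (51.2%) passed an adjusted p of 0.05, beside 24.7% of the sites of all genes within 1000 bp.

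**Figure D2:**
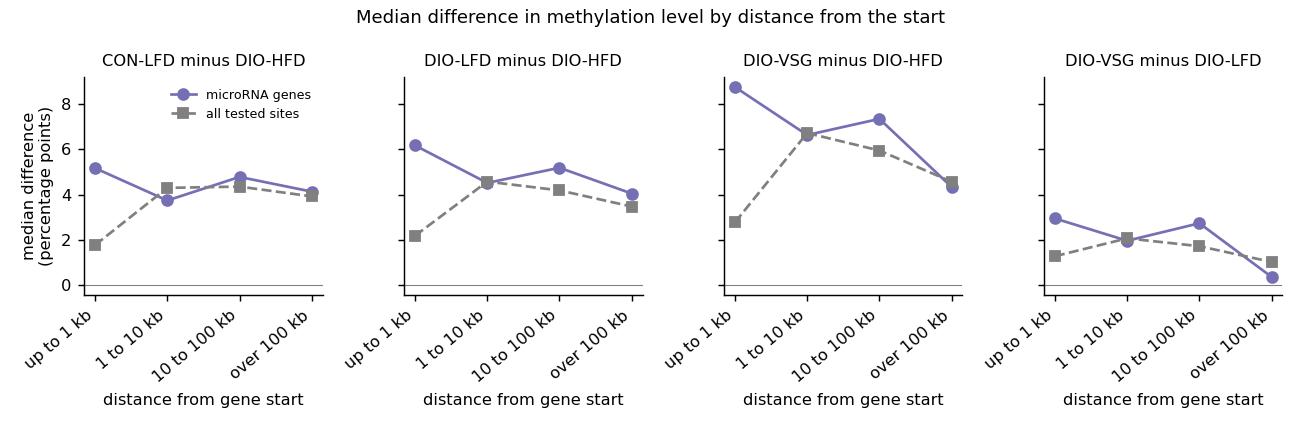
Median difference in methylation level (percentage points) by distance from the gene start in 4 comparisons, for microRNA gene sites (circles) and all tested sites (squares). Up to 1000 bp the microRNA sites sit at 8.74 points in DIO-VSG minus DIO-HFD while all sites sit at 2.78 points, and beyond 1000 bp both lie close together.

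Counted by gene, 122 microRNA genes had their nearest site within 1000 bp and at least 1 tested site. The mean level over a gene's tested sites was higher in DIO-VSG than in DIO-HFD mice at 97 of them, with differences from −25.3 to 22.7 points and a median of 5.07 points. CON-LFD and DIO-LFD means were each higher than DIO-HFD at 91 of the 122 genes, with medians of 3.67 and 3.58 points. The means without DIO-HFD replicate 1 were higher at 97 genes in DIO-VSG and at 94 in each of CON-LFD and DIO-LFD, with medians of 7.55, 6.23 and 6.01 points. DIO-VSG was above DIO-LFD at 85 of them, by a median of 1.87 points. No such count was made over the genes of the whole table. By site, the mean level was higher than in DIO-HFD mice at 73.2% (DIO-VSG), 70.2% (CON-LFD) and 69.7% (DIO-LFD) of all tested sites. Without DIO-HFD replicate 1 these shares were 75.2, 73.9 and 73.2%, and for DIO-VSG against DIO-LFD the share was 62.0%.

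Inside the hairpins themselves lay 37 sites, in 19 hairpins, and 34 sites in 16 hairpins were tested. Of the 34, 29 had a higher mean level in DIO-VSG than in DIO-HFD mice. Of the 34 differences, 10 higher (29.4%) and 0 lower ones had an unadjusted p under 0.05, beside 20.2% and 4.85% of all sites. Of these 10 sites, 4 were in Mir1905, 3 in Mir99b and 1 each in Mirlet7e, Mir7018 and Mir7240. Neighbouring CpGs of a hairpin can share fragments. Over the 34 sites the median difference was 8.66 points and the range −14.9 to 27.7 points. CON-LFD means were higher at 29 and DIO-LFD means at 28 of the 34 sites, each with 2 higher (5.88%) at an unadjusted p under 0.05, beside 6% and 7.92% of all sites. None passed an adjusted p, the smallest being 0.150. Without DIO-HFD replicate 1, 17 of the 34 sites were higher in DIO-VSG mice at an adjusted p under 0.05, 8 in DIO-LFD and 4 in CON-LFD mice, and 0 were lower. These are 50.0, 23.5 and 11.8%, beside 28.8, 12.1 and 9.67% of all sites. Of the 37 sites, 16 fell in a mature microRNA and 2 of them in a seed, both in Mir99b.

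Mir99b and Mirlet7e sit in tandem in an intron of Spaca6 on chromosome 17, and Mirlet7e overlaps the antisense microRNA gene Gm25927. Both strands share a CpG, so the level cannot be assigned to either gene. The miR-99 family is known to target mTOR. Averaged over the 8 tested CpGs of the Mir99b hairpin, the level was 84.5, 74.7 and 71.1% in CON-LFD mice, 84.3, 55.6, 63.0 and 58.9% in DIO-HFD mice, 86.4, 66.4 and 64.7% in DIO-LFD mice and 83.2, 83.8, 74.7 and 84.9% in DIO-VSG mice. DIO-HFD replicates 2 to 4 were below the other 11 mice, and replicate 1 lay among the DIO-VSG mice. The DIO-VSG mean was 16.2 points above that of the 4 DIO-HFD mice and 22.5 points above that of replicates 2 to 4.

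The CpG in the miR-99b-5p seed, with its C at base 5 of the mature microRNA, had 16.2 points more methylation in DIO-VSG than in DIO-HFD mice (difference in M 1.23, SE 0.45, adjusted p = 0.155). At the CpG in the miR-99b-3p seed, with its C at base 7, the difference was 27.7 points (M 1.75, SE 0.60, adjusted p = 0.150), the largest inside any hairpin. The Mir99b site with the smallest difference, at 3.50 points, was methylated at 80.9% or more in every mouse. For the 2 tested CpGs of the neighbouring Mirlet7e hairpin, the mean level was 65.5, 68.0 and 54.1% in CON-LFD mice, 68.2, 46.1, 46.6 and 50.6% in DIO-HFD mice, 71.2, 62.3 and 67.2% in DIO-LFD mice and 68.4, 61.2, 68.5 and 68.7% in DIO-VSG mice. The 2 CpGs differed. At the first, just upstream of let-7e-5p in the hairpin printed above, the DIO-VSG mean was 5.01 points above the DIO-HFD mean, and at the second, in the loop, it was 22.7 points above it (M 1.32, SE 0.36, adjusted p = 0.150).

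Mir1905 lies in a coding exon of Mex3a, an RNA-binding protein gene, within a CpG island, so its methylation cannot be separated from that of the exon. Averaged over its 5 CpGs, the level was 56.4, 57.8 and 38.6% in CON-LFD mice, 66.8, 22.7, 26.9 and 27.1% in DIO-HFD mice, 69.1, 47.5 and 47.6% in DIO-LFD mice and 53.9, 64.3, 56.4 and 60.8% in DIO-VSG mice. DIO-HFD replicates 2 to 4 were below every other mouse, and replicate 1 was above all but 1 DIO-LFD mouse. All 5 CpGs had a higher mean in DIO-VSG than in DIO-HFD mice, by 20.2 to 25.6 points, 4 of them at an unadjusted p under 0.05. The mean difference was 23.0 points, and 33.3 points without DIO-HFD replicate 1.

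Mir7240, in an intron of Mast3, was less methylated. Its 3 CpGs averaged 26.7, 27.2 and 18.7% in CON-LFD mice, 31.4, 14.9, 15.7 and 17.8% in DIO-HFD mice, 23.8, 11.1 and 25.2% in DIO-LFD mice and 28.5, 28.3, 29.3 and 29.1% in DIO-VSG mice. Replicates 2 to 4 of DIO-HFD were below the DIO-VSG mice, and 1 DIO-LFD mouse was lower still. Mir149, in an intron of the proteoglycan gene Gpc1, did not place those mice lowest. Over its 5 CpGs the level was 48.2, 34.6 and 39.4% in CON-LFD mice, 33.7, 34.9, 46.8 and 51.4% in DIO-HFD mice, 35.9, 36.9 and 38.1% in DIO-LFD mice and 35.2, 40.1, 43.0 and 38.2% in DIO-VSG mice. The 4 groups overlapped, DIO-HFD replicate 4 was the highest mouse, and the difference between DIO-VSG and DIO-HFD means was −2.59 points (−5.26 without DIO-HFD replicate 1). Within the Mir149 hairpin the level differed more between positions than between groups: in every mouse both CpGs of miR-149-3p were above the 3 CpGs nearer the 5′ end.

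**Figure D3:**
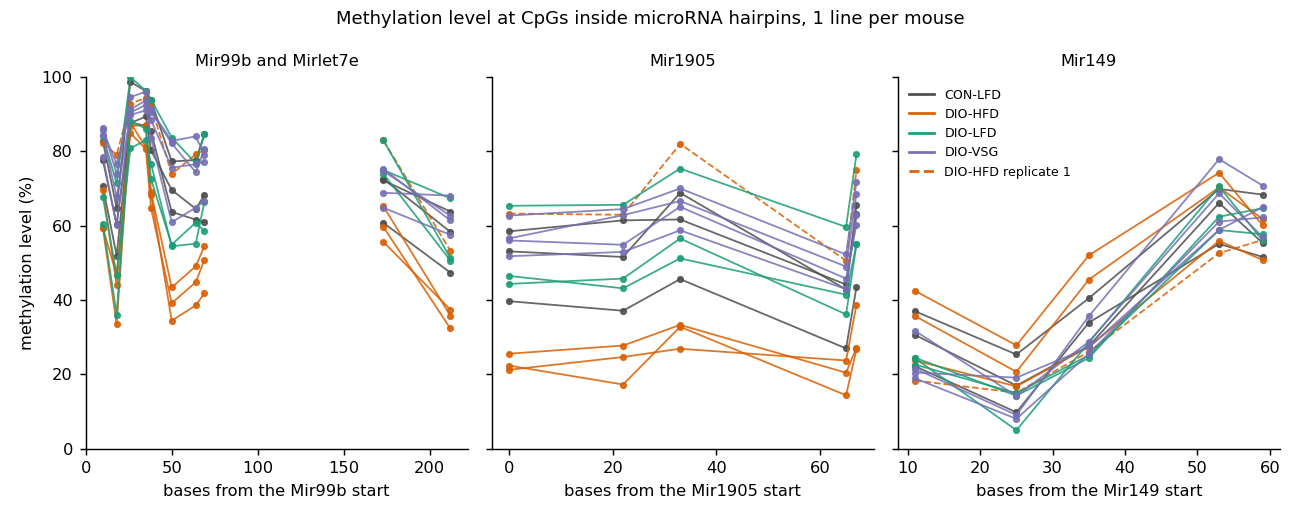
Methylation level (%) at the measured CpGs of 4 hairpins against distance in bases from the start of Mir99b (left, with Mirlet7e beyond 150 bases), Mir1905 and Mir149, with 1 line per mouse. At Mir99b, Mirlet7e and Mir1905 the 3 solid DIO-HFD lines run lowest at most CpGs while the dashed line of DIO-HFD replicate 1 runs with the other groups, and at Mir149 the groups overlap.

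Each remaining hairpin gene had 1 tested CpG listed under it. The hairpins of Mir219a-2 and Mir219b overlap on opposite strands, so the Mir219b CpG also lies within that of Mir219a-2. In Mir26b, whose microRNA is induced as fat cells mature and lies in Ctdsp1, the level was 90.0, 86.1 and 77.6% in CON-LFD mice, 88.1, 77.0, 83.5 and 66.7% in DIO-HFD mice, 91.8, 91.7 and 76.5% in DIO-LFD mice and 83.3, 90.9, 87.8 and 86.2% in DIO-VSG mice. In Mir210, a microRNA known for its induction by low oxygen, it was 59.5, 83.3 and 71.9% in CON-LFD mice, 69.8, 62.5, 63.8 and 56.0% in DIO-HFD mice, 69.6, 71.8 and 85.2% in DIO-LFD mice and 62.7, 58.2, 67.7 and 70.4% in DIO-VSG mice. In Mir203, a keratinocyte microRNA, it was 59.0, 58.7 and 55.6% in CON-LFD mice, 48.0, 59.0, 38.7 and 48.7% in DIO-HFD mice, 53.5, 36.4 and 63.6% in DIO-LFD mice and 48.8, 43.6, 55.1 and 56.1% in DIO-VSG mice. At these 3 CpGs the DIO-VSG and DIO-HFD mice overlapped. Mir181d had 83.5, 87.7 and 70.1% in CON-LFD mice, 91.5, 70.7, 72.7 and 70.6% in DIO-HFD mice, 87.2, 73.5 and 79.4% in DIO-LFD mice and 85.7, 86.2, 86.6 and 88.8% in DIO-VSG mice, so that the DIO-VSG mice were above DIO-HFD replicates 2 to 4 and below replicate 1. In Mir6538 the level was 48.4, 54.1 and 43.2% in CON-LFD mice, 51.8, 50.0, 60.0 and 53.0% in DIO-HFD mice, 61.0, 50.5 and 48.6% in DIO-LFD mice and 56.0, 0, 48.6 and 50.6% in DIO-VSG mice, with DIO-VSG replicate 2 alone at 0. At the CpGs of Mir219a-2, Mir219b, Mir3569, Mir6914, Mir7018 and Mir8117, the DIO-VSG mean differed from the DIO-HFD mean by −2.21 to 10.7 points.

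Genes among the 5 with the smallest p at any site in a comparison are described by that site, with its distance from the hairpin start, negative upstream. In the 3 comparisons with DIO-HFD, all mice of the other group lay on 1 side of all 4 DIO-HFD mice at each of these sites, since the choice by p favours such sites. Between CON-LFD and DIO-HFD, the first was Mir92b, a paralog of the miR-17-92 cluster, by a site at 603 bp in a UTR of Thbs3 and an intron of Mtx1, at position 89226596 on chromosome 3. The level there was 77.3, 83.3 and 74.6% in CON-LFD mice, 63.6, 48.0, 52.2 and 52.9% in DIO-HFD mice, 77.1, 81.8 and 82.7% in DIO-LFD mice and 76.6, 72.3, 79.7 and 67.2% in DIO-VSG mice. CON-LFD and DIO-LFD mice were all above DIO-HFD mice, and so were the DIO-VSG mice. On the M scale the difference came to 1.59 (SE 0.34, adjusted p = 0.611) for CON-LFD and 1.76 (SE 0.34, adjusted p = 0.430) for DIO-LFD, and without DIO-HFD replicate 1 the adjusted p was 0.0132 and 0.00767.

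Next in the CON-LFD comparison was Mir7687, in an intron of Gse1 and a CpG island, by a site at 227 bp, position 120538921 on chromosome 8. It ran the other way, with 0, 4.00 and 4.55% in CON-LFD mice, 7.69, 21.2, 25.6 and 21.7% in DIO-HFD mice, 2.08, 6.67 and 7.69% in DIO-LFD mice and 12.1, 6.45, 3.12 and 8.33% in DIO-VSG mice. At this lowly methylated site all DIO-HFD mice were above the CON-LFD mice, and replicate 1 was below 2 DIO-VSG mice (difference in M −2.88, SE 0.69, adjusted p = 0.611). Mir6919 followed, by a CpG at 1154 bp in an intron of Mgat4b, which encodes a glycosyltransferase. This site was named in 2 comparisons, so the sequence around it, chr11:50233377-50233418 on the plus strand of GRCm38, is shown with the CpG in capitals.
Mir6919 site: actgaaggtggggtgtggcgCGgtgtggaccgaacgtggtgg

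At the Mir6919 site the level was 62.5, 82.0 and 76.1% in CON-LFD mice, 87.5, 90.4, 93.1 and 91.9% in DIO-HFD mice, 77.5, 86.7 and 70.0% in DIO-LFD mice and 73.6, 73.2, 67.1 and 68.9% in DIO-VSG mice. The 4 DIO-HFD mice were the highest of all 14, replicate 1 included. On the M scale it came to −1.69 (SE 0.41, adjusted p = 0.611) for CON-LFD and to −1.94 (SE 0.38, adjusted p = 0.150) for DIO-VSG. The remaining genes of the CON-LFD comparison were Mir3082, by a site at −116 bp in Jmjd8 and Stub1, and Mir466f-4, by a site at 384811 bp in a long noncoding RNA. Mir3082 had 67.4, 78.3 and 65.3% in CON-LFD mice, 56.0, 48.6, 44.7 and 42.4% in DIO-HFD mice, 73.5, 52.9 and 62.4% in DIO-LFD mice and 70.2, 74.4, 68.6 and 70.7% in DIO-VSG mice, lower in DIO-HFD than in CON-LFD mice. Mir466f-4 had 72.2, 57.7 and 76.3% in CON-LFD mice, 85.7, 79.2, 91.3 and 95.2% in DIO-HFD mice, 77.9, 85.7 and 78.3% in DIO-LFD mice and 75.0, 80.5, 82.9 and 85.7% in DIO-VSG mice, higher in DIO-HFD mice. All 5 had an adjusted p of 0.611, and without DIO-HFD replicate 1 it lay between 0.0132 and 0.0379.

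In the DIO-LFD comparison, the genes described beside Mir92b are Mir5046, Mir7213 and Mir5621. At the Mir5046 site, on chromosome 19 at 3970 bp, the level was 88.7, 93.9 and 89.2% in CON-LFD mice, 92.4, 83.5, 82.0 and 86.9% in DIO-HFD mice, 98.0, 95.7 and 98.0% in DIO-LFD mice and 92.6, 93.5, 85.8 and 87.8% in DIO-VSG mice. DIO-LFD mice were all above 95% and DIO-HFD mice all below 93%. The adjusted p for DIO-LFD was 0.437 with all mice and 0.00843 without DIO-HFD replicate 1. Mir7213 was represented by a site in Pdgfb, the gene of a platelet-derived growth factor, at −4234 bp. Its level was 82.9, 79.2 and 72.6% in CON-LFD mice, 80.4, 64.2, 57.7 and 68.9% in DIO-HFD mice, 89.5, 90.0 and 85.5% in DIO-LFD mice and 85.4, 85.7, 91.4 and 88.6% in DIO-VSG mice. The DIO-LFD and the DIO-VSG mice were above all DIO-HFD mice (difference in M 1.74, SE 0.39, adjusted p = 0.494, and 1.68, SE 0.36, adjusted p = 0.150).

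At the Mir5621 site, in a coding exon of Tmem94 at 1559 bp, the level was 84.5, 95.3 and 78.4% in CON-LFD mice, 82.7, 60.3, 60.3 and 67.9% in DIO-HFD mice, 91.6, 90.9 and 89.8% in DIO-LFD mice and 89.9, 89.9, 91.8 and 85.5% in DIO-VSG mice. Here only the DIO-HFD mice were below 85%, apart from 2 CON-LFD mice. The adjusted p for DIO-LFD was 0.494 with all mice and 0.0132 without DIO-HFD replicate 1.

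In the DIO-VSG comparison, all 5 sites had an adjusted p of 0.150 with all mice and between 0.00117 and 0.00603 without DIO-HFD replicate 1. Besides Mir6919 and Mir7213 they were Mir6355, Mir6346 and Mir6991. The Mir6355 site lies far from the hairpin, at −83442 bp, in an intron of the chondroitin synthase gene Chsy3, and had 63.0, 38.9 and 40.5% in CON-LFD mice, 38.5, 42.3, 38.2 and 17.9% in DIO-HFD mice, 54.0, 50.0 and 50.0% in DIO-LFD mice and 71.4, 81.8, 75.0 and 54.8% in DIO-VSG mice. The DIO-VSG mice were above all DIO-HFD mice (difference in M 2.28, SE 0.48, adjusted p = 0.150). Mir6346 was represented by a site in a coding exon of Gli2, a transcription factor of Hedgehog signaling, at −118240 bp. This CpG is shown because its level differed in the same direction in all 3 comparisons with DIO-HFD, at chr1:118835960-118836001 on the plus strand of GRCm38.
Mir6346 site: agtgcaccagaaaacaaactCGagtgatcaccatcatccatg

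The level at the Mir6346 site was 74.7, 78.2 and 71.9% in CON-LFD mice, 67.3, 66.4, 59.2 and 62.8% in DIO-HFD mice, 76.1, 76.5 and 76.7% in DIO-LFD mice and 77.0, 79.4, 80.0 and 83.4% in DIO-VSG mice. All 10 other mice were above all 4 DIO-HFD mice, replicate 1 included, and for DIO-VSG the M values differed by 1.14 (SE 0.25, adjusted p = 0.150).

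**Figure D4:**
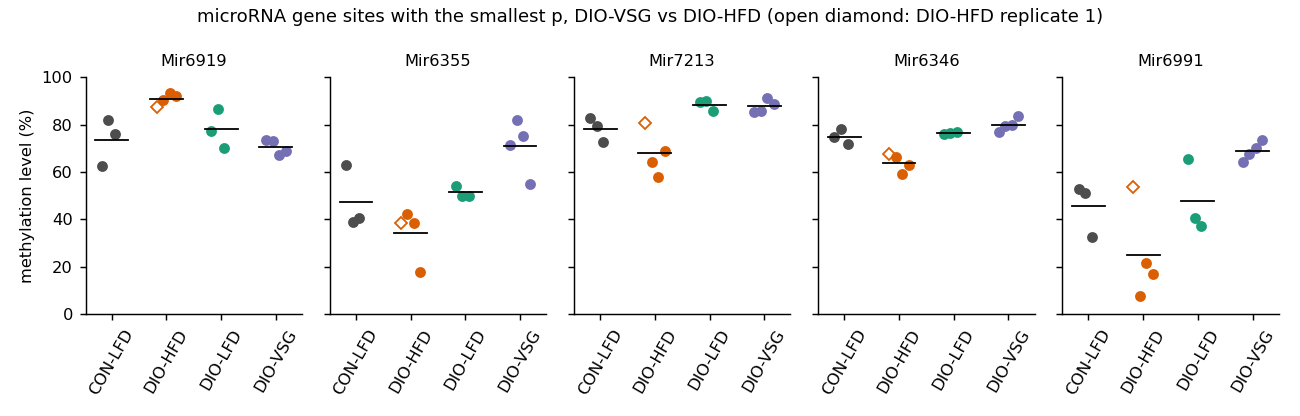
Methylation level (%) of each mouse at the site with the smallest p of the 5 microRNA genes described for DIO-VSG against DIO-HFD. Lines are group means and the open diamond is DIO-HFD replicate 1. The 4 DIO-VSG mice are below all DIO-HFD mice at Mir6919 and above all of them at the other 4 genes.

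Mir6991, the gene with the most sites, lies in 2700081O15Rik on chromosome 19, and its 86 sites run from −658 to 1372 bp, 77 of them in a CpG island. At the site with the smallest p, at 1223 bp, the level was 52.9, 50.9 and 32.4% in CON-LFD mice, 53.7, 7.81, 21.5 and 17.1% in DIO-HFD mice, 65.6, 40.7 and 37.1% in DIO-LFD mice and 64.0, 67.7, 70.2 and 73.3% in DIO-VSG mice. The DIO-VSG mice were all above the DIO-HFD mice (difference in M 2.93, SE 0.64, adjusted p = 0.150). Over the 86 sites the mean level was 63.7, 65.6 and 44.8% in CON-LFD mice, 72.3, 31.3, 43.2 and 43.3% in DIO-HFD mice, 73.0, 47.1 and 55.5% in DIO-LFD mice and 70.3, 66.5, 69.7 and 69.2% in DIO-VSG mice. DIO-HFD replicates 2 to 4 were the lowest mice, DIO-HFD replicate 1 and DIO-LFD replicate 1 were the highest, and the DIO-VSG mice lay within 5 points of each other.

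Across the Mir6991 sites, the DIO-VSG mean exceeded the DIO-HFD mean at all 86, by 5.29 to 43.8 points with a median of 22.3, and at 55 sites at an unadjusted p under 0.05. All 4 DIO-VSG mice were above all 4 DIO-HFD mice at 10 sites, and above replicates 2 to 4 at 71. Of all tested sites, 20.2% were higher in DIO-VSG mice at that p. The 4 DIO-VSG mice were above all 4 DIO-HFD mice at 5.55% of all tested sites, and above replicates 2 to 4 at 38.5%. CON-LFD means were above DIO-HFD at 83 sites (median 12.7 points) and DIO-LFD means at 76 (median 13.5 points). The DIO-VSG mean was above the DIO-LFD mean at 85 sites (median 9.79 points), and 1 of the 86, at 638 bp and lower in DIO-VSG, had an unadjusted p under 0.05. Neighbouring CpGs here can share fragments, so the 86 sites are 1 locus and not 86 observations.

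Between DIO-VSG and DIO-LFD mice, the 5 genes were Mir5046, Mir483, Mir195b, Mir680-2 and Mir5103, each with an adjusted p of 0.945. Mir483 lies in an intron of the imprinted gene Igf2, and at its site at 471 bp the level was 41.7, 46.3 and 41.7% in CON-LFD mice, 29.6, 61.5, 44.1 and 52.6% in DIO-HFD mice, 29.0, 35.7 and 27.1% in DIO-LFD mice and 66.1, 48.9, 58.7 and 52.9% in DIO-VSG mice. DIO-VSG mice were above DIO-LFD mice (difference in M 1.55, SE 0.42, adjusted p = 0.945), and DIO-HFD mice spread across both. Over all 21 Mir483 sites the DIO-VSG mean was 1.76 points above the DIO-LFD mean, while the median difference was −2.57 points. Mir5046 was lower in DIO-VSG than in DIO-LFD mice, with a difference of −7.31 points at the site given above. The Mir195b site, at −357765 bp, had 89.3, 100 and 100% in CON-LFD mice, 84.6, 91.7, 84.6 and 90.9% in DIO-HFD mice, 91.7, 96.9 and 84.4% in DIO-LFD mice and 100, 97.9, 100 and 100% in DIO-VSG mice, all near full methylation. The Mir680-2 site, on chromosome X at −21323 bp, had 38.2, 28.6 and 45.9% in CON-LFD mice, 42.7, 45.5, 33.3 and 18.4% in DIO-HFD mice, 35.9, 22.6 and 20.4% in DIO-LFD mice and 59.5, 39.7, 50.0 and 62.5% in DIO-VSG mice, and the Mir5103 site, at 15022 bp, had 88.5, 88.2 and 95.8% in CON-LFD mice, 92.7, 91.3, 87.5 and 83.0% in DIO-HFD mice, 85.9, 92.9 and 85.2% in DIO-LFD mice and 100, 97.0, 90.8 and 100% in DIO-VSG mice. DIO-VSG and DIO-LFD mice did not overlap at the first 4 of these genes and overlapped at Mir5103.

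The microRNA families and cell-type groups below are described by the counts of tested sites at an unadjusted p under 0.05 and by the median difference in points between DIO-VSG and DIO-HFD mice, which was 7.18 over all 2003 microRNA sites and 5.40 over all tested sites. Centring each mouse on its median level lowers every difference in points between DIO-VSG and DIO-HFD by the same amount. It therefore leaves the distance of a list from the 7.18 and 5.40 points unchanged. The sign of a centred median alone does not place a list above or below all sites. None of the sites in these lists passed an adjusted p with all mice. Over all tested sites, 20.2% were higher and 4.85% lower at the unadjusted p, and 28.8% were higher and 5.62% lower at an adjusted p under 0.05 without DIO-HFD replicate 1. The let-7 family, known to hold back growth genes in differentiated cells, had sites at 3 of 15 listed genes. Of its 30 tested sites, 17 were higher (56.7%, beside 20.2% of all sites) and 0 lower in DIO-VSG mice, with a median of 17.6 points, and 9.90 points after centring each mouse. Without DIO-HFD replicate 1, 26 of the 30 (86.7%, beside 28.8%) passed an adjusted p of 0.05, all higher, and the median was 25.3 points. The CON-LFD and DIO-LFD medians were 9.98 and 11.2 points (17.5 and 18.6 without that mouse).

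Mirlet7c-2 gave 24 of these sites, from −21079 to −562 bp within the noncoding RNA Lncppara, and averaged 74.7, 75.0 and 57.2% in CON-LFD mice, 80.0, 45.5, 51.7 and 49.7% in DIO-HFD mice, 81.4, 56.5 and 68.8% in DIO-LFD mice and 77.7, 76.8, 74.4 and 76.8% in DIO-VSG mice. The DIO-VSG mice were above DIO-HFD replicates 2 to 4 and just below replicate 1. Mirlet7b, its neighbour, had 1 tested site with 41.4, 40.4 and 29.9% in CON-LFD mice, 49.6, 16.8, 25.5 and 31.6% in DIO-HFD mice, 52.2, 35.9 and 40.9% in DIO-LFD mice and 39.9, 47.3, 41.6 and 41.9% in DIO-VSG mice. Mirlet7e had 5 tested sites, including the hairpin CpGs above, and averaged 71.2, 64.9 and 55.5% in CON-LFD mice, 74.3, 46.1, 50.9 and 48.0% in DIO-HFD mice, 71.5, 58.3 and 64.0% in DIO-LFD mice and 70.0, 66.5, 65.8 and 71.8% in DIO-VSG mice. At Mirlet7c-2 and Mirlet7e, DIO-HFD replicates 2 to 4 were the lowest mice, and at Mirlet7b CON-LFD replicate 3 was below DIO-HFD replicate 4.

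For the miR-17-92 cluster and its paralogs, a proliferation-promoting group, 2 of 17 genes had tested sites. Of 11 sites, 3 were higher (27.3%) and 0 lower in DIO-VSG mice (median 2.56 points, −5.13 after centring). Without DIO-HFD replicate 1 the median was 2.74 points, with 3 sites higher (27.3%) and 0 lower at an adjusted p under 0.05, and in CON-LFD and DIO-LFD mice, against all 4, it was 5.68 and 6.02 points (7.08 and 9.23 without that mouse). The 3 higher sites in the fit of all mice belonged to Mir92b, whose 9 sites averaged 68.9, 71.0 and 69.2% in CON-LFD mice, 67.2, 62.7, 64.1 and 57.8% in DIO-HFD mice, 71.6, 73.4 and 70.6% in DIO-LFD mice and 68.2, 67.6, 67.6 and 66.4% in DIO-VSG mice. The cluster's own host gene, Mir17hg, had 66.2, 56.2 and 65.8% in CON-LFD mice, 61.0, 50.1, 58.5 and 61.2% in DIO-HFD mice, 58.3, 62.7 and 42.8% in DIO-LFD mice and 65.3, 53.4, 48.8 and 56.3% in DIO-VSG mice over 2 sites, with overlapping groups.

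Among microRNAs of fat cells and lipid metabolism, 11 of 49 listed genes had tested sites. Of 42 sites, 7 were higher (16.7%) and 4 lower (9.52%) in DIO-VSG mice (median 5.60 points, −2.09 after centring). This median became 6.11 points when DIO-HFD replicate 1 was left out, with 11 sites higher (26.2%) and 5 lower (11.9%) at an adjusted p under 0.05. The CON-LFD and DIO-LFD medians against DIO-HFD were 4.01 and 1.79 points (5.86 and 5.55 without that mouse). The 4 lower sites were all at Mir33, which lies in an intron of Srebf2, a master regulator of cholesterol synthesis, and is known to repress cholesterol export. Over its 8 tested sites the level was 62.7, 63.9 and 62.6% in CON-LFD mice, 58.9, 74.1, 77.3 and 76.1% in DIO-HFD mice, 65.6, 69.0 and 65.9% in DIO-LFD mice and 61.7, 63.0, 64.8 and 62.8% in DIO-VSG mice. DIO-HFD replicates 2 to 4 were the highest mice and replicate 1 the lowest, and the mean DIO-VSG difference from DIO-HFD was −8.54 points, or −12.8 points without replicate 1. Without that mouse, 5 of the 8 sites were lower at an adjusted p under 0.05.

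Mir26b averaged 81.3, 80.3 and 71.8% in CON-LFD mice, 82.7, 68.4, 69.3 and 67.9% in DIO-HFD mice, 82.3, 72.0 and 76.2% in DIO-LFD mice and 81.4, 79.0, 77.8 and 81.8% in DIO-VSG mice over 8 sites, with DIO-HFD replicates 2 to 4 lowest. Mir375, known from pancreatic islets and fat cell differentiation, averaged 50.8, 47.5 and 51.2% in CON-LFD mice, 50.6, 48.4, 54.3 and 47.7% in DIO-HFD mice, 50.8, 50.0 and 49.2% in DIO-LFD mice and 49.4, 47.3, 48.1 and 46.6% in DIO-VSG mice over 2 sites, all within 8 points of each other. Other genes of this list with a site within 1000 bp were Mir193a, Mir193b, Mir145a and Mir455. The DIO-VSG mean was 4.28 points above the DIO-HFD mean at Mir193a (5 sites) and 6.82 points above it at Mir145a (1 site). Mir193b, a regulator of brown fat cells, and Mir455 had 0 sites that varied enough to be tested, with levels from 28.6 to 72.1% over 3 sites and from 91.3 to 100% over 2 sites across the 14 mice.

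Among microRNAs of blood and immune cells, 10 sites in 4 of 19 genes were tested. Of these, 7 were lower (70.0%) and 0 higher in DIO-VSG mice (median −14.3 points, −22.0 after centring). Leaving out DIO-HFD replicate 1 gave −18.0 points, with 1 site higher (10%) and 7 lower (70.0%) at an adjusted p under 0.05. Against DIO-HFD, the medians of CON-LFD and DIO-LFD were −5.69 and −6.26 points (−9.36 and −9.35 without that mouse). The 7 lower sites in the fit of all mice belonged to Mir142hg, the host RNA of miR-142, a microRNA made almost only in blood cells. These sites lay between −960 and 394 bp from the annotated start of the host RNA. The mean over them was 43.7, 45.7 and 61.7% in CON-LFD mice, 42.4, 73.5, 71.1 and 73.2% in DIO-HFD mice, 38.5, 62.1 and 58.0% in DIO-LFD mice and 41.9, 44.3, 42.7 and 45.7% in DIO-VSG mice. All 4 DIO-VSG mice were far below DIO-HFD replicates 2 to 4, replicate 1 was among the DIO-VSG mice, and the CON-LFD and DIO-LFD mice ran from 38.5 to 62.1%. The mean difference was −21.4 points, and −29.0 points without DIO-HFD replicate 1, when all 7 sites passed an adjusted p of 0.05. Mir181d, Mir181c and Mir223, the other 3 genes with a tested site, had 1 tested site each, 0 of them at an unadjusted p under 0.05. How many blood cells each sample held was not tested.

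Epithelial and breast cancer microRNAs had 35 tested sites in 7 of 23 genes. Of these, 7 were higher (20.0%) and 0 lower in DIO-VSG mice (median 7.42 points, −0.278 after centring), 3 each at Mir99b and Mir210. Without DIO-HFD replicate 1 the median was 11.3 points, with 14 sites higher (40.0%) and 0 lower at an adjusted p under 0.05, and in CON-LFD and DIO-LFD mice, against all 4, it was 7.39 and 4.89 points (10.04 and 8.56 without that mouse). Mir210 averaged 50.1, 59.3 and 45.1% in CON-LFD mice, 48.3, 30.8, 39.1 and 32.9% in DIO-HFD mice, 50.6, 47.5 and 54.4% in DIO-LFD mice and 48.9, 47.6, 50.1 and 56.7% in DIO-VSG mice over 4 sites, with DIO-HFD replicates 2 to 4 below all other mice. Mir200c, which holds cells in an epithelial state, had 1 site at −116 bp with 77.6, 81.4 and 70.9% in CON-LFD mice, 83.9, 59.6, 69.7 and 62.6% in DIO-HFD mice, 90.6, 67.0 and 77.2% in DIO-LFD mice and 84.5, 79.5, 82.0 and 79.5% in DIO-VSG mice. Mir203 averaged 78.1, 77.6 and 71.2% in CON-LFD mice, 80.0, 65.8, 64.5 and 64.4% in DIO-HFD mice, 76.2, 64.1 and 74.3% in DIO-LFD mice and 73.4, 72.8, 74.6 and 77.0% in DIO-VSG mice over 8 sites. In both, DIO-LFD replicate 2 and DIO-HFD replicates 2 to 4 were the 4 lowest mice. Mir148a differed by −0.761 points over 7 sites.

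Muscle and vessel wall microRNAs had 19 tested sites in 4 of 21 genes, 6 higher (31.6%) and 0 lower (median 9.97 points, 2.28 after centring). This median became 11.9 points when DIO-HFD replicate 1 was left out, with 8 sites higher (42.1%) and 0 lower at an adjusted p under 0.05. The CON-LFD and DIO-LFD medians against DIO-HFD were 6.02 and 9.50 points (10.4 and 12.9 without that mouse). Mir126a lies in Egfl7 and is made by endothelial cells. Its 7 sites, from −1225 to −3 bp, averaged 84.2, 79.7 and 72.8% in CON-LFD mice, 87.5, 61.0, 69.0 and 62.6% in DIO-HFD mice, 87.9, 77.7 and 85.3% in DIO-LFD mice and 77.6, 85.7, 85.6 and 84.6% in DIO-VSG mice. Again DIO-HFD replicates 2 to 4 were lowest and replicate 1 was among the highest, and 5 of the 7 sites were higher in DIO-VSG at an adjusted p under 0.05 without it. Mir499, in the myosin gene Myh7b, averaged 71.3, 69.6 and 72.5% in CON-LFD mice, 74.9, 61.9, 65.3 and 62.1% in DIO-HFD mice, 74.9, 68.4 and 69.3% in DIO-LFD mice and 72.2, 72.9, 68.7 and 71.3% in DIO-VSG mice over 9 sites, with DIO-HFD replicates 2 to 4 below all other mice.

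Among microRNAs in Hox clusters the direction differed between genes. Of 16 tested sites in 4 of 6 genes, 6 were lower (37.5%) and 2 higher (12.5%) in DIO-VSG mice (median −7.66 points, −15.4 after centring). Leaving out DIO-HFD replicate 1 gave −10.7 points, with 2 sites higher (12.5%) and 8 lower (50.0%) at an adjusted p under 0.05. Against DIO-HFD, the medians of CON-LFD and DIO-LFD were −5.77 and −4.74 points (−7.89 and −7.65 without that mouse). The 6 lower sites were at Mir196b, in Hoxa9, whose 9 tested sites averaged 22.0, 21.8 and 22.0% in CON-LFD mice, 20.97, 34.4, 34.4 and 34.5% in DIO-HFD mice, 24.1, 20.7 and 22.8% in DIO-LFD mice and 20.3, 24.1, 19.7 and 22.3% in DIO-VSG mice. Every other mouse, replicate 1 included, was below DIO-HFD replicates 2 to 4. The 2 higher sites were at Mir196a-1, which has the same seed as Mir196b in another Hox cluster, and which averaged 51.8, 49.1 and 41.6% in CON-LFD mice, 55.5, 37.7, 36.7 and 33.3% in DIO-HFD mice, 50.8, 43.2 and 49.5% in DIO-LFD mice and 56.0, 58.2, 54.7 and 51.6% in DIO-VSG mice. These genes of 1 seed differed from DIO-HFD in opposite directions, by −9.50 points at Mir196b and 14.3 points at Mir196a-1. Mir615, in Hoxc5, averaged 31.4, 29.6 and 22.1% in CON-LFD mice, 35.5, 18.8, 27.0 and 19.0% in DIO-HFD mice, 37.7, 18.2 and 31.0% in DIO-LFD mice and 32.4, 27.3, 26.4 and 29.5% in DIO-VSG mice over 3 sites.

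Nervous system microRNAs had 36 tested sites in 11 of 37 genes, 5 higher (13.9%) and 1 lower (2.78%) (median 5.76 points, −1.94 after centring). The median was 9.03 points without DIO-HFD replicate 1, with 8 sites higher (22.2%) and 1 lower (2.78%) at an adjusted p under 0.05, and in CON-LFD and DIO-LFD mice, against all 4, it was 2.87 and 4.59 points (6.69 and 8.07 without that mouse). Mir219a-2 averaged 61.4, 65.9 and 55.4% in CON-LFD mice, 68.5, 49.7, 56.2 and 54.9% in DIO-HFD mice, 65.1, 58.7 and 66.9% in DIO-LFD mice and 66.4, 66.8, 62.9 and 64.3% in DIO-VSG mice over 13 sites. Mir219b had 1 site at 69.5 to 86.6%. Mir138-2 had 1 site with 16.3, 18.3 and 28.2% in CON-LFD mice, 29.8, 20.7, 14.2 and 22.9% in DIO-HFD mice, 51.4, 33.3 and 20.0% in DIO-LFD mice and 20.4, 27.1, 18.1 and 29.6% in DIO-VSG mice, and Mir212 had 1 site with 65.0, 55.2 and 55.8% in CON-LFD mice, 57.5, 47.7, 50.9 and 58.2% in DIO-HFD mice, 56.7, 47.5 and 49.4% in DIO-LFD mice and 52.8, 49.0, 52.3 and 62.9% in DIO-VSG mice. At the remaining genes with a site within 1000 bp (Mir219a-1, Mir9-3, Mir9-3hg, Mir124a-1hg and Mir124a-3) the DIO-VSG mean was 0.427 to 13.8 points above the DIO-HFD mean. Of the 50 listed imprinted microRNAs, only Mir483 had sites. Of its 21 sites, 0 differed between DIO-VSG and DIO-HFD at that p, with a median of 2.26 points (−5.43 after centring, 1.07 without DIO-HFD replicate 1).

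**Figure D5:**
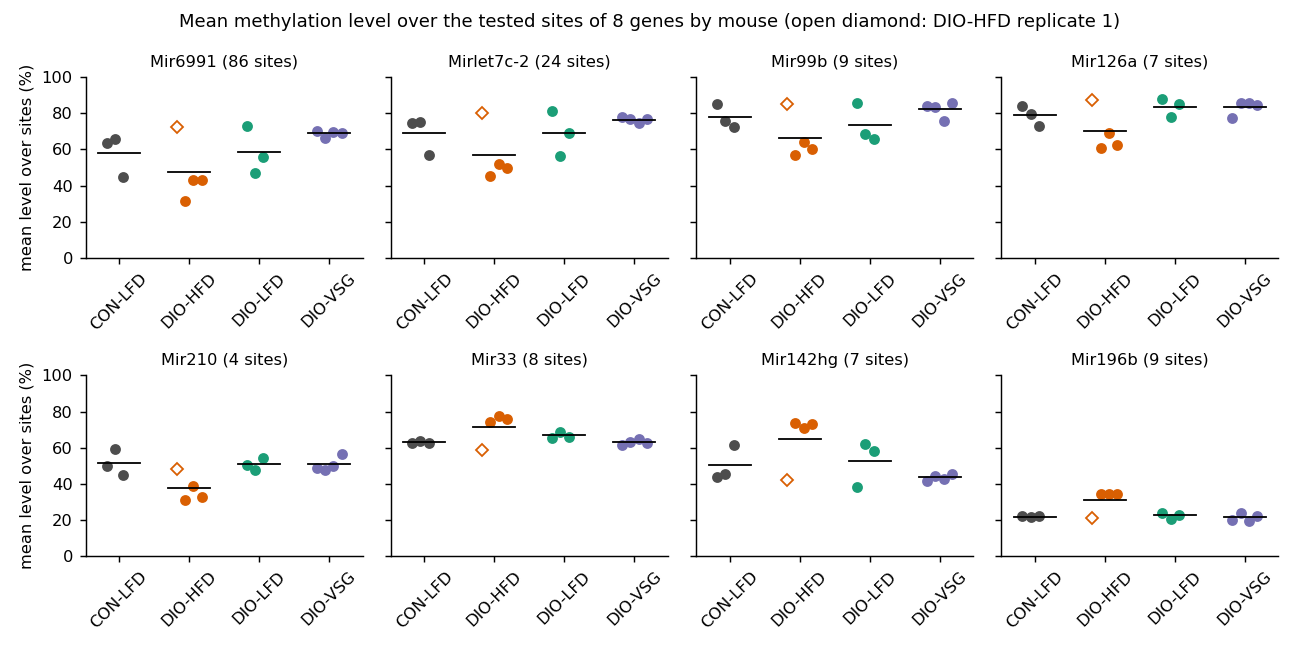
Mean methylation level (%) over the tested sites of 8 genes for each mouse, with lines at group means and the open diamond at DIO-HFD replicate 1. DIO-HFD replicates 2 to 4 sit lowest at Mir6991, Mirlet7c-2, Mir99b, Mir126a and Mir210 and highest at Mir33, Mir142hg and Mir196b, while replicate 1 sits near the DIO-VSG mice in each.

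Genes of the microRNA processing and silencing machinery were not members but were described beside them. Sites were tested at 5 of the 27 listed, in 23 sites. At an unadjusted p under 0.05, 2 were higher (8.70%, beside 20.2% of all sites) and 5 lower (21.7%, beside 4.85%) in DIO-VSG than in DIO-HFD mice. The median was −3.74 points (−11.4 after centring, −4.06 without DIO-HFD replicate 1), and the smallest adjusted p was 0.150. Of the 5 lower sites, 4 were neighbouring sites in Ago2, the Argonaute protein that cuts its targets, at 2285 to 2398 bp from its start. No other Ago2 site reached that p. The remaining lower site was in the CpG island of Tnrc6c, a protein that recruits the deadenylation machinery, at −52 bp (difference in M −0.80, SE 0.35, adjusted p = 0.182). The higher sites lay at 4857 bp from the start of Ago1 and, much farther out, at 72084 bp from that of Dicer1. Drosha, Dgcr8 and Xpo5 were among the genes with 0 tested sites.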

How the data were processed

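RRBS was performed on mammary fat pads of 14 mice. The authors aligned the reads to mm10 with Bismark and called methylation with methylKit. Per the study's methods, mice with poor sequencing quality and bases with extreme coverage were left out. The authors deposited 1 table of the methylated fraction of reads per CpG, which is annotated with the nearest transcript start. The table gives no read numbers, so the depth per sample and the precision it gives are unknown here. Each column was matched to its mouse by the labels, and each mouse is a separate animal. The p-values measure the spread between mice.

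The members and gene lists were chosen with earlier results of these data known. Sites with an SD of at least 0.05 over the 14 mice were kept, and the fraction was converted to M, the log2 ratio of methylated to unmethylated share with an offset of 0.01. All 4 groups were fitted together per site with limma 3.58.1 (moderated statistics, R 4.3.3), and two-sided p-values received the Benjamini-Hochberg adjustment across the 65610 sites, with a threshold of 0.05. Differences in points are differences of group means in percentage points. In each comparison, the 5 microRNA genes with the smallest unadjusted p at any tested site were named, together with genes with a site in the hairpin and, for each list, the genes with sites nearest the start. Mir6991 was described by ranges, and 1 gene of the comparison of DIO-LFD with DIO-HFD is not reported here. Gene positions came from GENCODE M21 and sequences from RefSeq for GRCm38.p6, and the table's distances matched the annotated starts within 2 bases at all 2249 sites. Alternatives were another offset (0.1), another minimum SD (0.1), no SD filter, the level in place of M, trended and robust variances, sites within 10000 bp of the start, centring on the median, only the groups compared, the replicate number as a block, averaging runs of sites at most 100 bp apart, leaving out each mouse and, chosen after seeing the data, leaving out Mir6991. Tables and plots were made with Python 3.11.15, pandas 2.3.3, NumPy 2.4.6 and Matplotlib 3.10.9.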

Additional observations from a re-analysis of the deposited data

Results flagged for a closer look

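In groups of 4 mice, the highest or lowest mouse was set against Dixon's 95% critical value for its gap to the nearest mouse as a share of the group's range. Of 66 groups examined, 9 passed. Chance flags about 1 in 20 groups, which is 3.3 of 66.

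At 4 hairpins DIO-HFD replicate 1 stood above the other DIO-HFD mice. Its level was 66.8% at Mir1905, where the others had 22.7 to 27.1% (gap 0.901 of the range), and 91.5% at Mir181d, against 70.6 to 72.7% (0.899). It was 86.6% at Mir219b, against 69.5 to 71.7% (0.874), and 92.7% at Mir219a-2, against 79.5 to 81.4% (0.853). Mir219b and Mir219a-2 overlap on opposite strands, so they are not separate loci. DIO-HFD replicate 1 also had the highest mean over all microRNA sites. DIO-HFD replicate 4 was low at the Mir6355 site, at 17.9% against 38.2 to 42.3% (0.833).

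The DIO-VSG mice gave the other 4. Replicate 2 was at 0% in Mir6538, where the others had 48.6 to 56.0% (0.869), at 61.2% in Mirlet7e, against 68.4 to 68.7% (0.954), and at 97.9% at the Mir195b site, where the others were at 100% (1). Replicate 3 was at 74.7% in the Mir99b hairpin, against 83.2 to 84.9% (0.833). Without read counts, a level of exactly 0 or 100% cannot be told apart from a site with few reads.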

How the results depend on the processing

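For CON-LFD, DIO-LFD and DIO-VSG against DIO-HFD and DIO-VSG against DIO-LFD the counts at an unadjusted p under 0.05 were 168, 257, 612 and 45. With a minimum SD of 0.1 they became 46, 87, 247 and 9, and with runs of sites averaged 66, 101, 247 and 20. Both leave fewer values to test. At that SD they were 8.61, 16.3, 46.3 and 1.69%, beside 7.61, 11.8, 39.8 and 3.50% of all sites. Of the runs they were 8.25, 12.6, 30.9 and 2.5%, beside 7.54, 9.56, 24.8 and 4.63% of all runs. Fitting only the groups compared gave 68 (3.39%), 99 (4.94%) and, for DIO-VSG against DIO-LFD, 87 (4.34%). The shares of all sites were 4.15, 4.68 and 5.94%. That fit called 1 site between DIO-VSG and DIO-HFD (0.0499%, beside 0.0716% of all sites), where the fit of all groups called 0. Centring each mouse on its median level turned the differences in mean level to −0.875, −0.295, −1.18 and −0.885 points. Over all sites it gave −1.41, −1.35, −2.80 and −1.45 points. A minimum SD of 0.1 raised the difference in mean of DIO-VSG against DIO-HFD to 11.1 points.

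Leaving out 1 mouse at a time, the called sites ran from 0 to 330 (CON-LFD), 0 to 425 (DIO-LFD) and 0 to 896 (DIO-VSG), each highest without DIO-HFD replicate 1, and were 0 throughout for DIO-VSG against DIO-LFD. The other counts above 0 were 2 without DIO-LFD replicate 2 (0.0999%, beside 0.0549% of all sites) and 1 without DIO-VSG replicate 1 (0.0499%, beside 0.00762%). At an unadjusted p they ran from 67 (without CON-LFD replicate 1) to 762, from 134 (without DIO-HFD replicate 4) to 833, from 337 (without DIO-HFD replicate 2) to 1148, and from 30 (without DIO-VSG replicate 1) to 128 (without DIO-LFD replicate 1). Differences in mean level ran from 2.50 to 6.62, 2.82 to 7.24, 5.14 to 9.27 and 0.581 to 3.69 points.

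With the replicate block, 166, 236, 696 and 65 sites had an unadjusted p under 0.05 and 0 an adjusted one. The unadjusted counts are 8.29, 11.8, 34.7 and 3.25%, beside 7.49, 9.33, 27.6 and 4.48% of all sites. Deviations of same-numbered mice correlated at −0.080 to 0.202 over 19 pairs (median 0.034). Those of other pairs correlated at −0.288 to 0.191 over 54 (median −0.016). These ranges overlapped, and a link between same-numbered mice was not tested further. Without Mir6991 the counts were 165, 252, 557 and 44. These are 8.61, 13.1, 29.1 and 2.30%, beside 7.76, 10.1, 25 and 3.98% of all sites with that gene kept. The 20 site differences chosen by p kept their direction in all 433 alternatives. Sites chosen for a small p in these same data could hardly turn, so this is no test of them. A call was gained in 16 alternatives, most of them without DIO-HFD replicate 1. Unknown read depth limits all single-site values.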
